A study of Mus musculus with 2 samples.

Results

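The cells described here are macrophages of a mouse pancreatic tumour that carried RNA of Ear2 and Car4, genes best known from macrophages of the lung airspace. They were chosen by their own counts: a cell barcode belonged to them when it held at least 2 unique molecular identifiers (UMIs, 1 per captured RNA molecule) of Ear2 and Car4 together, at least 1 of Atp6v0d2 and Lpl together and at least 1 of Csf1r and Cd68 together. S100a8 and S100a9, abundant in neutrophils, had to make up less than 3% of its UMIs, and Cd79a, Cd3e and Epcam, genes of B, T and epithelial cells, had to be at 0. Before that, barcodes under 1000 UMIs or under 500 genes were dropped, as were those with mitochondrial genes above 20% of UMIs. The rule found 2659 of 36662 such barcodes, 1049 of 9872 in the vehicle tumour and 1610 of 26790 in the takinib tumour. The levels of the genes in the rule are therefore description and not findings. In the GENCODE annotation of GRCm38, Ear2 lies at chr14:44102654-44103534 and Car4 at chr11:84957786-84966044, both protein-coding on the plus strand.

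Alveolar macrophages live in the airspace of the lung and clear surfactant, the lipid film secreted by the epithelium. Granulocyte-macrophage colony-stimulating factor (GM-CSF) and TGF-beta set up their program through the nuclear receptor PPARγ, and they are known by the chitinase-like protein Chil3, the scavenger receptor Marco, the lectin Siglecf, the lipid carrier Fabp4 and the ribonucleases of the Ear family. Outside the lung, some of these genes are used by lipid-handling macrophages of other tissues.

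Both groups were 6 week old KPPC mice, a model of pancreatic cancer, treated for 14 days with vehicle (KPPC_vehicle) or with takinib at 50 mg/kg (KPPC_takinib). Takinib inhibits TAK1, the kinase encoded by Map3k7, which carries signals of toll-like, interleukin-1 and TNF receptors to NF-kB and MAP kinases. The labels give no alleles, Cre driver, sex, vehicle solution or number of mice behind a library, and the word pancreas stands under cell line for what was taken here as tumour tissue. Tumours were digested with collagenase and DNase before single cells were captured, with 1 library in each group.

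With 1 library per group no difference between treatments could be tested, and every interval below is a 95% interval of counting error only (exact Poisson for levels, exact Clopper-Pearson for shares). The libraries held 80850334 UMIs in vehicle and 139292875 in takinib, of which the macrophages described here held 6008015 and 13583106. Their median was 5274 UMIs and 1857 genes per barcode in vehicle and 7454 UMIs and 2350.5 genes in takinib, and the median mitochondrial share was 6.61% and 2.99%. Levels are counts per 1000000 of the summed UMIs of these cells (CPM), and ratios are log2 of takinib over vehicle after adding 10 CPM to each. Of the barcodes past the filters 400 had the same sequence in both libraries, 3 of them among the cells described here.

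The libraries stood apart in 2 ways that touch the results. In vehicle, 233 of the 1049 macrophages carried Xist RNA of the inactive X chromosome without Y-linked RNA, 280 carried Y-linked RNA without Xist, 33 carried both and 503 neither. In takinib 1444 of 1610 carried Xist and 0 carried Y-linked RNA, so the vehicle library held cells of a female and a male source while a Y-linked source was not detected among these takinib cells. Values below are therefore also given for the Xist and the Y-linked vehicle macrophages apart. The second is neutrophil RNA: 12578 takinib barcodes but 134 vehicle barcodes held S100a8 and S100a9 at 3% of UMIs or more. Within the macrophages S100a8 and S100a9 together stood at 212 CPM in vehicle and 4084 CPM in takinib, which is 0.202% and 3.36% of their level in the neutrophils of the same library.

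The cells were macrophages by their markers and alveolar-like in part. The 7 macrophage markers Csf1r, Cd68, Adgre1, Fcgr1, Mertk, Lyz2 and Itgam, of which the rule used Csf1r and Cd68, reached 18119 and 10205 CPM in sum in vehicle and takinib, and all were above 10 CPM in both. The 5 given markers Ear2, Car4, Chil3, Atp6v0d2 and Lpl summed to 6776 and 15702 CPM, mostly Chil3. Markers of lung epithelium summed to 1.66 and 1.62 CPM, with the surfactant genes Sftpc, Sftpb and Sftpa1 at 0 in both. Eosinophils also use Ear genes; their markers Ccr3, Il5ra, Prg2 and Epx summed to 0 and 3.83 CPM, and Epx was at 0 in both. Siglecf, a defining lectin of alveolar macrophages, was low, at 23.5 CPM (vehicle) and 12.4 CPM (takinib). Krt79 had no UMI in either library, Ear10 had 0 and 2 and Cidec 1 and 10, so parts of the lung program were at or near 0. The name alveolar-like thus rests on the other genes of the program.

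Markers of other cells were present at lower levels and moved between the libraries. In sum, the 5 fibroblast markers were at 431 CPM (vehicle) and 334 CPM (takinib), the 5 epithelial markers to 107 and 49.1 CPM, and the 6 acinar markers to 138 and 19.1 CPM. Perivascular markers summed to 79.7 and 10.0 CPM and endothelial markers to 25.5 and 8.10 CPM. Erythroid genes stood at 28.0 and 1112 CPM, and the 8 neutrophil markers other than the S100 genes at 43.3 and 343 CPM. Dendritic, T and NK, and B and plasma cell markers stayed under 30 CPM in sum in both. The classical monocyte markers summed to 332 and 241 CPM and the non-classical ones to 34.0 and 87.8 CPM. The part of these differences in the results below was not tested, except where values are given.

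Relative to C1q macrophages without Ear2 and Car4 (1398 in vehicle and 2158 in takinib, with a C1q sum of at least 3 UMIs), 12 genes led in both libraries at once. They were Retnla, Rnase2a, Chil3, Klhdc4, Lpl, Mgll, Clec4b1, Atp6v0d2, Sort1, Il18, Abcg1 and Marco. Retnla was carried by few cells, since 1.91% of all vehicle and 4.47% of takinib macrophages held a UMI of it. Chil3 (chr3:106147554-106167564, minus strand) stood at 4779 CPM [4724, 4835] in vehicle and 13301 CPM [13240, 13363] in takinib, against 1039 and 4028 CPM in the C1q macrophages. Rnase2a, a ribonuclease of the same family as the Ear genes, stood at 80.6 and 157 CPM against 15.6 and 10.9 CPM. Mgll, the lipase that ends triglyceride breakdown, stood at 51.1 and 81.5 CPM against 11.4 and 18.6 CPM. Lpl, the lipase on which lipoprotein triglycerides are split, stood at 539 and 774 CPM against 129 and 177 CPM, and it was part of the rule. C1q was used to choose the cells compared, so these differences describe the classes and were not tested.

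**Figure D1:**
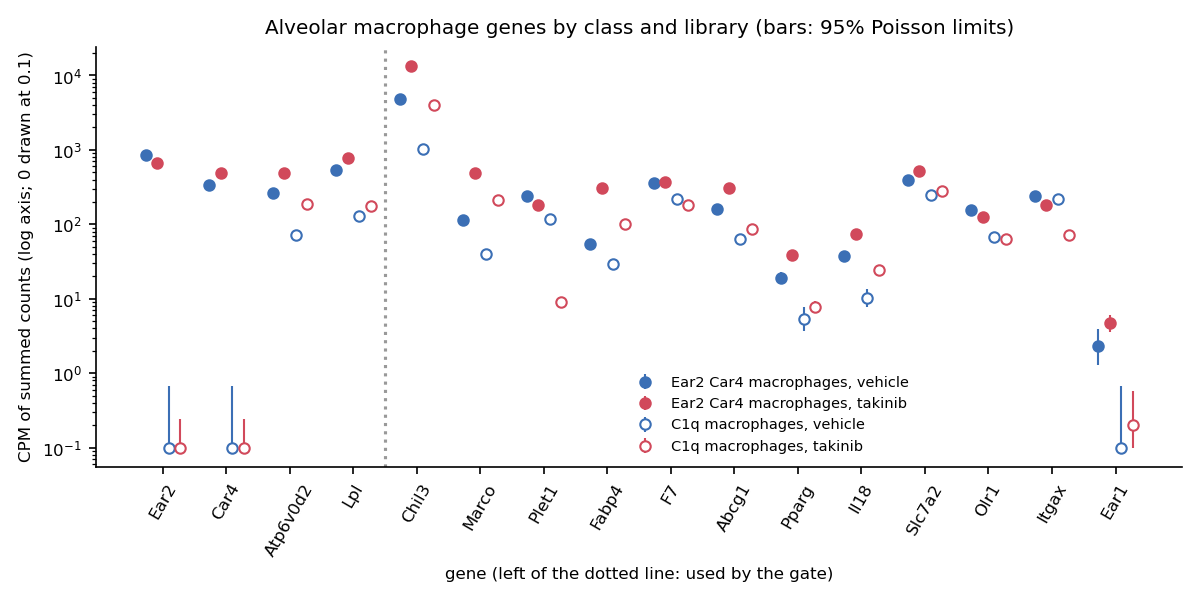
Levels (CPM, log axis, a level of 0 drawn at the foot) of the rule's genes, left of the dotted line, and of alveolar macrophage genes, in the Ear2 Car4 macrophages (filled) and C1q macrophages (open) of vehicle and takinib; bars are 95% counting limits of the summed counts. Chil3, Marco and Fabp4 are higher in takinib in both classes, and Plet1 is at 182 CPM in the takinib Ear2 Car4 macrophages but 8.93 CPM in the takinib C1q macrophages.

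The share of these macrophages depended on what they were counted against. They made up 10.6% [10.0, 11.3] of vehicle barcodes and 6.01% [5.73, 6.30] of takinib barcodes, a ratio of 0.566. Among macrophage-gated barcodes alone they were 24.3% [23.0, 25.6] of 4316 and 22.4% [21.4, 23.4] of 7190. Among barcodes under the S100a8 and S100a9 limit they were 10.8% [10.2, 11.4] of 9738 and 11.3% [10.8, 11.9] of 14212, so the direction of the ratio turned once neutrophils left the denominator. The vehicle sources differed as well: they made up 20.8% [18.5, 23.3] of the 1120 barcodes with Xist and 8.74% [7.78, 9.77] of the 3204 with Y-linked RNA, against 9.26% [8.80, 9.72] of the 15602 takinib barcodes with Xist. Neutrophils were kept in these denominators. Among barcodes with neither RNA these macrophages were 9.39% of 5354 in vehicle and 1.48% of 11188 in takinib. The log2 ratio of the shares of all barcodes, -0.82, was -0.34 with at least 2000 UMIs and 1000 genes and -1.32 with at most 10% mitochondrial UMIs.

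No gap in the data lay beside the threshold. Barcodes with 1 UMI of Ear2 and Car4, just outside, numbered 256 in vehicle and 269 in takinib, and those with 2 UMIs, just inside, 180 and 217. In vehicle Chil3 stood at 3031 CPM just outside and 3174 CPM just inside, and Apoe at 13042 and 15420 CPM. In takinib Chil3 stood at 7528 and 9243 CPM, Plet1 at 52.1 and 101 CPM and Apoe at 5489 and 4334 CPM. Within the rule, Chil3 was higher where Ear2 and Car4 were higher: 3140 CPM at 2 to 3 UMIs and 6875 CPM at 10 or more in vehicle, and 9598 and 15633 CPM in takinib. Both Ear2 and Car4 were seen in 37.3% of the vehicle and 52.5% of the takinib cells, and Ear2 without Car4 in 59.4% and 40.7%. All these Ear2 and Car4 counts were not thinned. The median depth was 5274 UMIs in vehicle and 7454 UMIs in takinib, and the part of depth in these shares was not tested. In vehicle the cells with both stood at 8400 CPM of Chil3, 2694 CPM of Apoe and 5809 CPM of class II genes in sum, and those with Ear2 alone at 1978, 13683 and 16654 CPM. In takinib the cells with both stood at 16231, 1624 and 2035 CPM and those with Ear2 alone at 10259, 4693 and 3922 CPM.

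Within vehicle the macrophages of the different sources had different programs. Ear2 itself was close, at 814 CPM with Xist and 731 CPM with Y-linked RNA. Chil3 stood at 10684 CPM in the Xist cells and 2769 CPM in the Y-linked cells, and Retnla, a secreted protein of alternatively activated macrophages, at 594 and 36.2 CPM. The Retnla level rested on the few cells that held it. Apoe, the lipoprotein ligand of lipid-loaded macrophages, ran the other way, at 3635 and 10594 CPM, as did the complement gene C1qa at 723 and 2010 CPM. Of the 9970 tested genes 128 differed by more than 1 on the log2 scale in either direction between these 233 and 280 cells. Median UMIs were 5102 and 6144.5, so depth and source moved together.

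Thinning every barcode to 1000 UMIs showed the same cell by cell. The median Chil3 count was 13 in takinib, 11 in vehicle cells with Xist and 0 in those with Y-linked RNA, and 7.95%, 10.3% and 52.9% of cells had none. The median Apoe count was 1, 1 and 7. The median class II count (7 genes summed) was 1, 3 and 9, so takinib lay below both vehicle sets. Fth1, the heavy chain of the iron store ferritin, had medians of 31, 20 and 16. For Cxcl2 and Cxcl3 together 48.3% of takinib cells had no UMI, against 76.0% and 75% in vehicle.

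**Figure D2:**
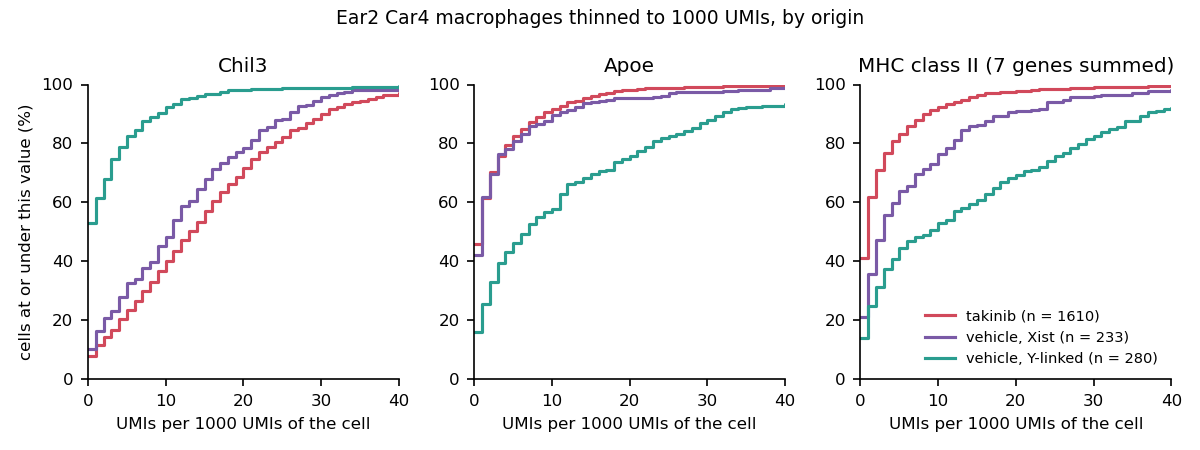
Percent of macrophages at or under each count after thinning to 1000 UMIs (horizontal axis, UMIs per 1000), for Chil3, Apoe and the 7 class II genes summed; lines are takinib, vehicle with Xist and vehicle with Y-linked RNA. The Apoe line of takinib overlies that of vehicle with Xist and the Chil3 lines lie close, while in class II the takinib line lies above both vehicle lines, at lower counts per cell.

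Over all genes with at least 50 counts in these macrophages in a library (9970), 154 (1.54%) were higher in takinib by more than 1 on the log2 scale and 95 (0.953%) were lower by more than 1. The median over all of them was 0.02. Against the vehicle cells with Xist alone, 126 of the 154 higher genes and 41 of the 95 lower genes stayed past 1. Against the vehicle cells with Y-linked RNA it was 135 and 87, and 110 and 35 held against both. So the lower genes depended more on the vehicle source than the higher ones. In the C1q macrophages 209 of 10183 genes (2.05%) were higher and 233 (2.29%) lower, and 117 of the 154 and 86 of the 95 were among them, with both comparisons made between the same pair of libraries. Without likely doublets 102 genes were higher, and with a pseudocount of 1 CPM the counts were 414 and 240. The lower genes numbered 41 when the gate was set on thinned barcodes (111 and 197 cells) and 374 among cells without S100a8 or S100a9 UMIs (805 and 34 cells).

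The genes farthest higher in takinib were Saa3, Lcn2, Cstdc4, Ccl5, Cxcl3, Acod1, Ifitm1, Gpnmb, Stfa2l1, U90926, Hp and Csta2. The acute-phase protein gene Saa3 stood at 134 CPM [125, 144] in vehicle and 6820 CPM [6776, 6864] in takinib, 50.8 times higher. Lcn2, whose product binds bacterial iron carriers, stood at 13.5 and 1026 CPM. Acod1, the enzyme that makes itaconate in activated macrophages, stood at 2.16 and 131 CPM, and the haemoglobin-binding protein Hp at 69.6 and 595 CPM. U90926 had no UMI in vehicle and 72.5 CPM in takinib, at least 145-fold higher than the level of 3 counts over the vehicle cells. Cstdc4, Stfa2l1 and Csta2 are near-identical stefin genes between which reads may be split, and they stood at 201, 77.9 and 97.5 CPM in takinib and under 5 CPM in vehicle. Scaled to the S100 level of the macrophages, the takinib neutrophils would give 106, 54.9 and 12.6 CPM of these, 155 of the 273 CPM of Ifitm1 and 530 of the 6820 CPM of Saa3. For 5 of the 154 higher genes, S100a9, Ngp, Cstdc5, Stfa2 and Retnlg, that level was at or above the one measured, and for 13 it was at least 50% of it.

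The genes farthest lower were Tmem176a, Ctrb1, Rgs5, Hist1h1d, Tmem176b, Igfbp3, Hist1h3d, H2-Ab1, H2-Eb1, Dcstamp, Igfbp7 and Cd74. The ion channel genes Tmem176a and Tmem176b stood at 350 and 423 CPM in vehicle and 43.3 and 65.7 CPM in takinib. In vehicle cells with Xist they stood at 114 and 153 CPM, so the ratio of Tmem176a was -2.76 against all and -1.22 against those. The linker histone gene Hist1h1d stood at 142 and 16.4 CPM, with 139 CPM in the Xist and 140 CPM in the Y-linked vehicle cells, so its difference was alike against both sources. Ctrb1 is an acinar digestive enzyme gene, at 94.5 and 5.52 CPM. Rgs5 is a gene of pericytes, at 51.6 CPM in vehicle and 2 counts in takinib, under the floor of 3. It stood at 47.8 CPM in vehicle cells with Y-linked RNA and at 5.36 CPM in those with Xist. Against the latter its ratio was -0.60 and no longer past 1, with both levels under the added 10 CPM. The stromal genes Igfbp3 and Igfbp7 stood at 52.3 and 2.58 CPM and at 218 and 41.6 CPM. Ctrb1 and Rgs5 are themselves part of the acinar and perivascular marker sums given above. They made up 94.5 of the 138 CPM and 51.6 of the 79.7 CPM in vehicle, so those sums say nothing separate about them. Where the RNA of these genes came from was not tested.

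**Figure D3:**
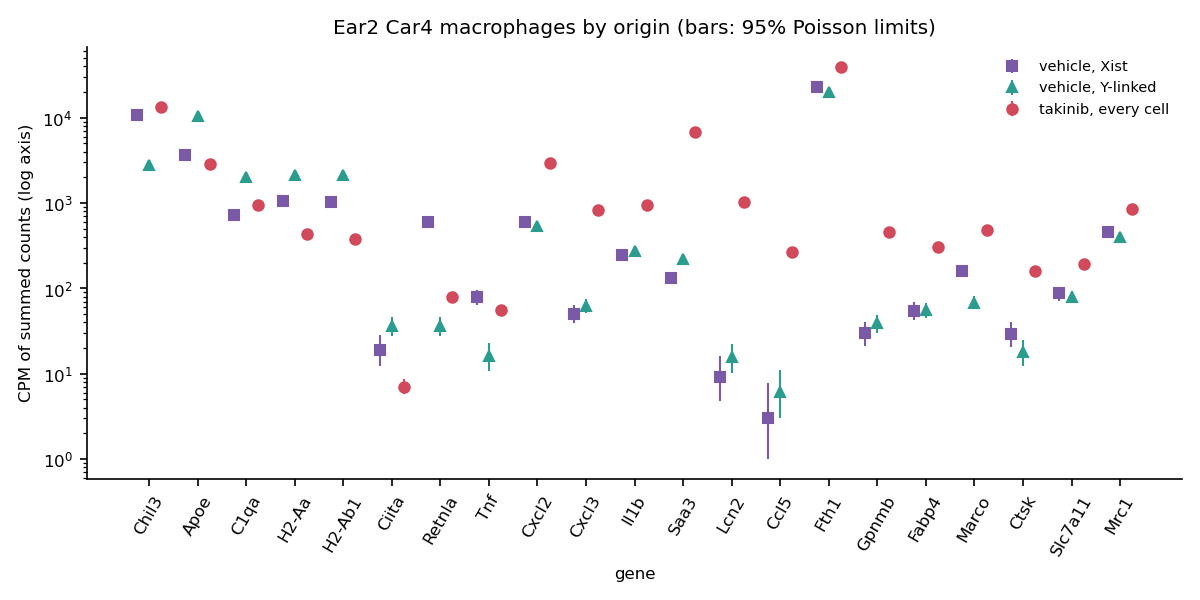
Levels (CPM, log axis) of named genes in vehicle macrophages with Xist, vehicle macrophages with Y-linked RNA and all takinib macrophages; bars are 95% counting limits. Chil3, Apoe and C1qa of takinib lie near the vehicle cells with Xist, H2-Aa, H2-Ab1 and Ciita lie under both vehicle sets, and Saa3, Lcn2, Gpnmb and Fabp4 lie above both.

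Of the 19 alveolar macrophage genes outside the rule, 17 had at least 10 counts in a library, and 4 of these were higher by more than 1 and 0 lower, with a median of 0.25 beside 0.01 for all genes. Against vehicle cells with Xist the median of the list was 0.0090 and against those with Y-linked RNA 0.24. The median of all genes was taken only against all vehicle cells. Of all 12891 genes with that many counts 1.19% were higher and 0.737% lower by more than 1, and the counts of every list below are to be read against these. The 4 were Chil3, Marco, Fabp4 and Ear6. Marco, a scavenger receptor for particles, stood at 113 CPM [105, 122] in vehicle and 484 CPM [473, 496] in takinib. It stood at 159 CPM in vehicle cells with Xist and 68.4 CPM in those with Y-linked RNA, so takinib lay above both. Fabp4, the fatty acid carrier of airspace macrophages and fat cells, stood at 54.6 CPM [48.8, 60.8] and 304 CPM [294, 313], with 54.4 and 55.6 CPM in the 2 vehicle sets. Its ratio was 2.28 against the first and 2.26 against the other, so it did not depend on the vehicle source. Chil3 had a ratio of 1.47 [1.46, 1.49] against all vehicle cells but 0.32 against those with Xist and 2.26 against those with Y-linked RNA. Near-identical Chil4 could share reads with it, and likewise Ear1, Ear2, Ear6 and Ear10 among themselves.

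The other alveolar genes differed less. The coagulation factor F7 stood at 357 and 371 CPM, and the arginine transporter Slc7a2 at 393 and 515 CPM. Pparg, the nuclear receptor of the lineage, stood at 19.3 and 38.9 CPM, with 35.2 CPM in vehicle cells with Xist. The sterol exporter Abcg1 stood at 159 and 310 CPM and the cytokine Il18 at 37.3 and 74.7 CPM, against 244 and 75.8 CPM in vehicle cells with Xist. Pparg, Il18 and Abcg1 lay within 0.33 of the vehicle Xist cells on the log2 scale. Plet1, an epithelial and airspace macrophage surface protein, stood at 243 CPM in vehicle and 182 CPM in takinib. In the C1q macrophages it stood at 119 and 8.93 CPM, so the takinib ratio was -0.39 in the first and -2.77 in the second, a difference that was not tested. The integrin Itgax stood at 238 and 180 CPM and the oxidised LDL receptor Olr1 at 158 and 124 CPM. The rule's own genes stood at 858 and 660 CPM for Ear2, 334 and 483 CPM for Car4 and 267 and 485 CPM for Atp6v0d2, an osteoclast-type subunit of the proton pump. The ratio of Car4 was -0.22 against vehicle cells with Xist and 0.76 against those with Y-linked RNA, and that of Atp6v0d2 0.09 and 1.39.

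Receptors and transcription factors of the lineage were nearly level. Of 18 such genes (GM-CSF and TGF-beta receptors, their signalling proteins and macrophage factors) 0 passed 1 in either direction, with a median of 0.04. Csf2rb, a GM-CSF receptor chain, stood at 304 and 266 CPM and Csf2ra at 243 and 201 CPM. The myeloid factors Spi1 and Cebpb stood at 281 and 314 CPM and at 1854 and 1614 CPM. At the ends of the list were Klf4, at 112 and 224 CPM, and Cebpa, at 155 and 83.0 CPM. Levels of different genes are not compared here, since the counts were not scaled by length.

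Lipid genes were mixed. Of 25 genes for lipid uptake, storage and export 5 were higher by more than 1 and 1 lower, with a median of 0.37. Beside Fabp4, the fatty acid transporter Cd36 stood at 15.6 and 49.3 CPM and the desaturase Scd1 at 7.16 and 39.2 CPM. Apoe was the lower gene, at 8826 CPM [8751, 8902] in vehicle and 2867 CPM [2839, 2896] in takinib, a ratio of -1.62. Against the vehicle cells with Xist the ratio of Apoe was -0.34 and against those with Y-linked RNA -1.88. Among cells with both Ear2 and Car4 Apoe stood at 2694 and 1624 CPM, and among those with Ear2 alone at 13683 and 4693 CPM. The latter were 59.4% of vehicle and 40.7% of takinib cells, from counts that were not thinned. The part of this mix in the ratio over all cells was not tested. The lipid droplet coat Plin2 stood at 314 and 333 CPM, the lysosomal sterol carrier Npc2 at 944 and 878 CPM and Fabp5 at 624 and 955 CPM. Most lipid genes were therefore within 1 of vehicle.

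The clearest shared pattern was in MHC class II, the molecules that present antigen peptides to CD4 T cells. They are switched on together by the coactivator Ciita, which acts through short promoter boxes (S, X and Y) close to the start of each gene. The Y box holds the letters TGATTGG, with the core CCAAT on the other strand. Promoters of class II genes were looked up in RefSeq on GRCm38.p6, where H2-Aa, H2-Eb1, H2-DMa and H2-DMb1 were matched and H2-Ab1 and Ciita were not, and Cd74 was left out. In the 120 bases before the start, searched on both strands, 3 of the 4 genes matched held TGATTGG, against 5.15% of 32851 promoters. They are shown because the genes next to them moved together; capitals mark TGATTGG and each is read 5′ to 3′ on the gene's strand. H2-Aa is on the minus strand (chr17:34287824-34287943), H2-Eb1 on the plus strand (chr17:34305747-34305866) and H2-DMb1 on the plus strand (chr17:34153071-34153190).
H2-Aa: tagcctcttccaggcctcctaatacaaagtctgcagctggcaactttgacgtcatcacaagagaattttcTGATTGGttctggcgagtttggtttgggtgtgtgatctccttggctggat
H2-Eb1: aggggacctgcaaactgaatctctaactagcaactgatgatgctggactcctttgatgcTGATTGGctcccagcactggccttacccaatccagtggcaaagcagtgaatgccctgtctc
H2-DMb1: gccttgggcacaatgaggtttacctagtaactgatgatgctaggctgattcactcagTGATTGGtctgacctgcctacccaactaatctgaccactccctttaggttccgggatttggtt
The match begins 50, 61 and 63 bases before the start in H2-Aa, H2-Eb1 and H2-DMb1. A match is a description of the letters and not a measured binding site.

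All 7 class II genes were lower in takinib by more than 1, with a median of -2.06, against 0.737% of all genes lower by more than 1. H2-Ab1, a beta chain, stood at 1836 CPM [1802, 1870] in vehicle and 382 CPM [372, 393] in takinib. H2-Aa, its alpha chain partner, stood at 1842 CPM [1807, 1876] and 435 CPM [424, 447], and H2-Eb1 at 1204 and 249 CPM. Cd74, the invariant chain that guides class II to the endosome, stood at 6091 and 1415 CPM. The peptide-loading genes H2-DMa and H2-DMb1 stood at 517 and 204 CPM and at 243 and 100.4 CPM, the smallest ratios of the list with Ciita. Ciita stood at 32.3 and 7.07 CPM, a ratio of -1.31. At levels this low the added 10 CPM makes the ratio smaller than the levels alone would. The counting intervals of H2-Ab1 and H2-Aa did not overlap between the libraries, but they hold counting error only and do not test a difference between tumours. Those of Fth1, with a ratio of 0.96, did not overlap either.

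The class II difference was smaller against the vehicle cells nearest to takinib in source. Against vehicle cells with Xist the median was -1.23 and against those with Y-linked RNA -2.26. H2-DMb1 and Ciita were at -0.91 and -0.77 against the Xist cells, no longer past 1. Ciita stood at 19.1 CPM in those cells and 7.07 CPM in takinib, so the added 10 CPM weighs on its ratio. H2-Aa stood at 1046 CPM with Xist, 2123 CPM with Y-linked RNA and 435 CPM in takinib, so takinib was lowest of the 3. Class II also followed C1q within vehicle: its 7 genes summed to 2897 CPM in the 227 cells with no C1q UMI per 1000 and 16589 CPM in the 640 cells with 3 or more. In takinib the sums were 2025 CPM in 508 cells and 3540 CPM in 676 cells. Holding both source and C1q, cells with Xist and C1q under 3 per 1000 had a class II sum of 3631 CPM in vehicle (156 cells) and 2306 CPM in takinib (838 cells). With Xist and C1q of 3 or more it was 13825 CPM in vehicle (77 cells) and 3501 CPM in takinib (606 cells). The gap between the libraries was thus wider among the C1q-rich cells, though that difference was not tested.

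Presentation by class I did not move the same way. Of 10 class I genes 0 passed 1, with a median of -0.15. B2m, the light chain, stood at 1443 and 1413 CPM, H2-D1 at 849 and 1018 CPM and H2-K1 at 662 and 605 CPM. H2-D1 and H2-K1 are close in sequence and may share reads. The immunoproteasome subunit Psmb9 stood at 67.7 and 52.7 CPM. The 18 measured interferon genes of 19 had a median of 0.21 and 0 past 1 in either direction. The median was 0.49 against vehicle cells with Xist and -0.26 with the gate set on thinned barcodes, so its sign was not held. At the ends of the list were Isg15, at 20.1 and 47.6 CPM, and Ifitm3, at 634 and 435 CPM.

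NF-kB target genes were next, since TAK1 lies upstream of NF-kB. The NF-kB motif searched is GGGNN directly followed by TTTCC, found on either strand in the 120 bases before the start of 0.737% of 32851 RefSeq promoters. Of 18 list genes matched to RefSeq promoters, 6 held it: Nfkbia, Tnfaip3, Cxcl1, Cxcl2, Cxcl3 and Nfkb2. The neighbouring neutrophil-attracting chemokine genes Cxcl1, Cxcl2 and Cxcl3 are shown because their levels differed in size; capitals mark the motif on either strand. All lie on the plus strand of GRCm38.p6, Cxcl1 at chr5:90891125-90891244, Cxcl2 at chr5:90903779-90903898 and Cxcl3 at chr5:90785981-90786100.
Cxcl1: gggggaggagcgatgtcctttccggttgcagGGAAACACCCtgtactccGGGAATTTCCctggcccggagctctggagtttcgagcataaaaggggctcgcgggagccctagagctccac
Cxcl2: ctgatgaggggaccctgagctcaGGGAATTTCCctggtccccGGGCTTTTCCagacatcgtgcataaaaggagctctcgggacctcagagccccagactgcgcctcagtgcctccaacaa
Cxcl3: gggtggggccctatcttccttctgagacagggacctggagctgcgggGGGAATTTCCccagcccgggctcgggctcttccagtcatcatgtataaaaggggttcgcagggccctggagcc
Cxcl1 and Cxcl2 hold 2 matches each and Cxcl3 holds 1, and the number of matches did not follow the ratios below. Marco also held 1 match.

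Of 23 NF-kB targets 10 were higher in takinib by more than 1 and 0 lower, and 21 were above 0, with a median of 0.95 beside 1.19% of all genes higher by more than 1. Cxcl2 stood at 526 CPM [508, 545] in vehicle and 2939 CPM [2910, 2968] in takinib. Cxcl3 stood at 42.6 CPM [37.6, 48.2] and 839 CPM [823, 854], and Cxcl1 at 27.5 and 63.4 CPM. Il1b, the inflammasome cytokine, stood at 281 CPM [268, 295] and 955 CPM [939, 971]. The macrophage chemokines Ccl3 and Ccl4 stood at 207 and 730 CPM and at 274 and 538 CPM. The feedback inhibitor Tnfaip3 stood at 64.4 and 145 CPM, a ratio of 1.06. Nfkbia, another, stood at 377 and 593 CPM, a ratio of 0.64 and so not past 1. Nfkb1 stood at 82.6 and 80.7 CPM and the survival gene Bcl2a1b, which has near-identical copies, at 831 and 713 CPM. The subunit Nfkb1 and Bcl2a1b were the genes that were not above 0.

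These levels moved with neutrophil RNA. Only 34 takinib cells (2.11%, 229200 UMIs) had no S100a8 or S100a9 UMI, against 805 vehicle cells (76.7%). In those 34 cells the median of the NF-kB list was -0.31 with 3 of 23 past 1, so the direction of the list turned. Cxcl2 stood there at 532 CPM [442, 636] against 502 CPM [482, 523] in the vehicle cells without S100 UMIs. Il1b stood at 127 CPM [84.7, 182] against 258 CPM, and Nfkbia at 362 against 353 CPM. From there Cxcl2 stood higher in each step of the S100 share in takinib: 1303 CPM in the 845 cells above 0 and under 0.1%, 1757 CPM in 302 cells under 0.25%, 3714 CPM in 113 under 0.5% and 7601 CPM in the 316 cells above that. In the 845 cells the list median was 0.59, with 8 of 23 past 1. Over all cells it was 0.54 without likely doublets and 0.66 after the neutrophil profile was subtracted. These steps were set after the data were seen.

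Genes differed in how they stood across the steps of the S100 share. Gpnmb stood at 458 CPM in the 34 cells without S100 UMIs and 544 CPM in the cells with the most, and at 42.3 CPM in vehicle cells without S100 UMIs. Fabp4 stood at 240 and 305 CPM and Marco at 288 and 487 CPM, each above the vehicle levels of 55.5 and 106 CPM. H2-Aa stood at 406 and 350 CPM against 1969 CPM, and the median of the class II list was -2.25 in the cells without S100 UMIs. Lcn2 and Fth1 did stand higher in each step, Lcn2 from 61.1 to 2645 CPM against 8.60 CPM in vehicle and Fth1 from 30083 to 43781 CPM against 20349 CPM. Saa3 stood at 2120 CPM without S100 UMIs and 10215 CPM with the most, against 124 CPM in vehicle. Of the 154 higher genes 68 stayed past 1 and 117 above 0 in the 34 cells, and of the 95 lower genes 73 stayed past 1 and 91 below 0.

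**Figure D4:**
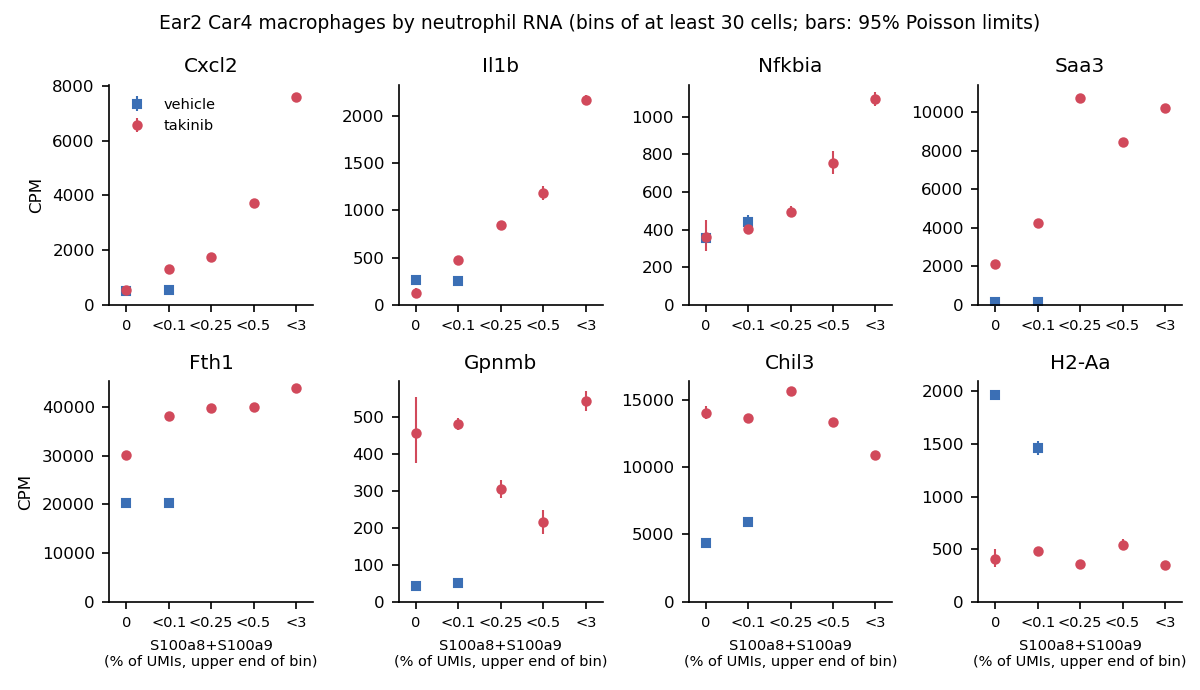
Levels (CPM) of 8 genes in macrophages binned by their share of S100a8 and S100a9 UMIs (horizontal axis, upper end of the bin in percent), for takinib and vehicle, in bins of at least 30 cells; bars are 95% counting limits. Cxcl2, Il1b and Nfkbia of takinib stand higher from bin to bin, and Gpnmb, Chil3 and H2-Aa lie apart from vehicle in the bin at 0.

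The same genes were looked for in B cells and epithelial cells. Epithelial cells are no clean background for Lcn2, which they carried in 14.1% of vehicle cells. At 1000 UMIs each, Cxcl2 was seen in 49.9% of these macrophages, 44.7% of B cells and 36.0% of epithelial cells of the takinib tumour (633 and 985 cells with S100 under 3%, median depths 1791 and 9375 UMIs). In vehicle it was seen in 22.9%, 6.88% and 2.90%. The mean of Cxcl2 in takinib was 2.58, 3.24 and 2.17 UMIs per 1000, so by the mean the B cells stood above the macrophages. Saa3 was seen in 45.6% of the takinib macrophages, 65.7% of the B cells and 33.5% of the epithelial cells, while its mean was 5.33, 2.62 and 1.39 UMIs per 1000, so the share and the mean ordered macrophages and B cells differently. Lcn2 was seen in 27.4%, 31.0% and 49.0%, and Il1b in 29.4%, 27.5% and 21.8%. For the following genes the macrophages stood far above the B cells: Chil3 in 92.0% against 25.8%, Marco in 20.1% against 1.74%, Fabp4 in 15.5% against 1.26% and Gpnmb in 20.7% against 4.90%. Without thinning, Cxcl2 was seen in 79.4% of the macrophages and 60.03% of the B cells and Chil3 in 97.6% and 36.7%. The neutrophil profile scaled to the S100 level of the macrophages would give 767 of the 2939 CPM of Cxcl2, 75.9 of the 839 CPM of Cxcl3 and 366 of the 1026 CPM of Lcn2.

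Chemokines as a list had 7 of 20 genes higher by more than 1 and 2 lower, with a median of 0.75. Ccl5, a chemokine for T cells and monocytes, stood at 5.33 and 266 CPM and Ccl2, which draws monocytes, at 62.4 and 170 CPM. The abundant Ccl6 and Ccl9 stood at 7315 and 9315 CPM and at 810 and 1074 CPM. Lower were Cxcl14, at 127 and 43.5 CPM, and Ccl24, a chemokine for eosinophils, at 75.7 and 31.6 CPM but 33.7 CPM in vehicle cells with Xist. In the takinib cells without S100 UMIs the median was 0.16 and in the next step 0.92.

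The TAK1 module itself was measured at low level. Of 11 genes 0 passed 1 in either direction, with a median of 0.09. Map3k7, the kinase takinib is made against, stood at 19.97 and 25.3 CPM, and its partners Tab1 at 5.66 and 5.30 CPM and Tab2 at 72.9 and 79.6 CPM. Ikbkb, the kinase that TAK1 activates, stood at 88.4 and 75.2 CPM. RNA levels do not measure the kinase activity that takinib blocks. The 21 immediate-early and AP-1 genes had 1 higher, Ier3 at 180 and 501 CPM, and 0 lower, with a median of 0.02. Ier5 stood lowest of them, at 174 and 84.6 CPM.

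Iron and antioxidant genes had 3 of 16 higher by more than 1 and 0 lower, with a median of 0.42 that was -0.02 in the 34 takinib cells without S100 UMIs. The 3 were the phagosome metal transporter Slc11a1, at 15.1 and 61.3 CPM, the cystine transporter Slc7a11, at 78.6 and 194 CPM, and the iron exporter Slc40a1, at 5.49 and 24.2 CPM. Fth1 stood at 20397 CPM [20283, 20511] and 39629 CPM [39523, 39735], a ratio of 0.96, while the light chain Ftl1 stood at 6912 and 7695 CPM. Ferritin genes have many processed copies, and reads may be split among them. Haem oxygenase Hmox1 stood at 118 and 188 CPM and Prdx1 at 1127 and 892 CPM. The erythroid genes given above were higher in takinib as well, with Hbb-bs at 11.98 and 810 CPM.

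Genes of C1q and lipid-associated macrophages parted from one another. Of 13 genes 1 was higher by more than 1 and 2 lower, with a median of -0.27, which was 0.40 against vehicle cells with Xist. Gpnmb, a lysosomal glycoprotein of lipid-loaded macrophages, stood at 43.8 CPM [38.6, 49.4] and 453 CPM [441, 464], with 29.9 CPM in Xist and 39.0 CPM in Y-linked vehicle cells. The lower ones were Apoe and Cx3cr1, the fractalkine receptor, at 43.9 and 5.08 CPM. The lipid receptor Trem2 stood at 189 and 155 CPM and the secreted Spp1 at 1540 and 1807 CPM. C1qa stood at 1658 and 960 CPM, but the ratio of -0.78 was 0.40 against the Xist cells, so its direction turned with the vehicle source. C1qb and C1qc did the same, with 0.54 and 0.66 against the Xist cells.

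Resident and alternative activation genes were uneven. Of 11 resident genes 3 were higher by more than 1 and 0 lower: Mrc1, the mannose receptor, at 416 and 856 CPM, the platelet-type chemokine Pf4 at 94.9 and 287 CPM and the transglutaminase F13a1 at 20.5 and 150 CPM. Mrc1 stood at 453 and 398 CPM in the 2 vehicle sets, so it was alike against both. Of 13 alternative activation genes 1 was higher and 2 lower, with a median of -0.19. That median was 0.24 against vehicle cells with Xist and 0.16 against those with Y-linked RNA, so its direction turned against each source. Arg1, which breaks down arginine, stood at 1632 and 2004 CPM, and Mgl2, a galactose lectin, at 48.8 and 7.95 CPM, but at 10.7 CPM in vehicle cells with Xist. Retnla had a ratio of -1.18 against all vehicle cells, -2.76 against those with Xist and 0.95 against those with Y-linked RNA, and it was 1.09 without likely doublets, so its direction also turned.

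Complement genes had 0 of 10 past 1, with a median of -0.22 that was 0.60 against the Xist cells. Matrix and growth factor genes had 2 of 20 higher, Mmp8 at 8.32 and 39.5 CPM and Mmp9 at 11.5 and 40.3 CPM, both neutrophil proteases as well. The list median of 0.14 was 0.52 against Xist and -0.11 against Y-linked vehicle cells. Fn1 stood at 3674 and 2801 CPM and Mmp12, the macrophage elastase, at 706 and 842 CPM. Large peritoneal macrophage genes had 7 of 8 measured, with Prg4 higher, at 0.333 and 21.2 CPM, and Alox15, a lipoxygenase, lower, at 163 and 44.8 CPM. Gata6, which defines large peritoneal macrophages, stood at 2.497 and 3.68 CPM. Osteoclast-type genes had 9 of 11 measured. Ctsk, a bone matrix protease, stood at 23.1 and 160 CPM and Mmp9 was the other higher gene, while Dcstamp, needed for cell fusion, was lower at 145 and 23.1 CPM. Acp5 stood at 563 and 453 CPM.

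Acidification and degradation genes were close to level, apart from single members. Of 15 V-ATPase subunits 0 passed 1, with a median of 0.20 and Atp6v0c at 1112 and 1299 CPM. Of 20 lysosomal genes 0 passed 1, with a median of 0.08. Psap stood at 5118 and 5046 CPM, Ctsd at 2883 and 3104 CPM and Ctsl, the highest ratio of the list, at 679 and 1206 CPM. Glycolysis and hypoxia genes had 1 of 21 higher, Bnip3 at 55.1 and 150 CPM, with a median of 0.17 that was 0.62 against the Xist cells. Proliferation genes had 0 of 18 past 1 and a median of -0.20, with Mki67 at 63.1 and 66.8 CPM. Cells with at least 2 proliferation UMIs per 1000 made up 10.8% [8.96, 12.8] of vehicle and 7.52% [6.28, 8.91] of takinib macrophages.

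**Figure D5:**
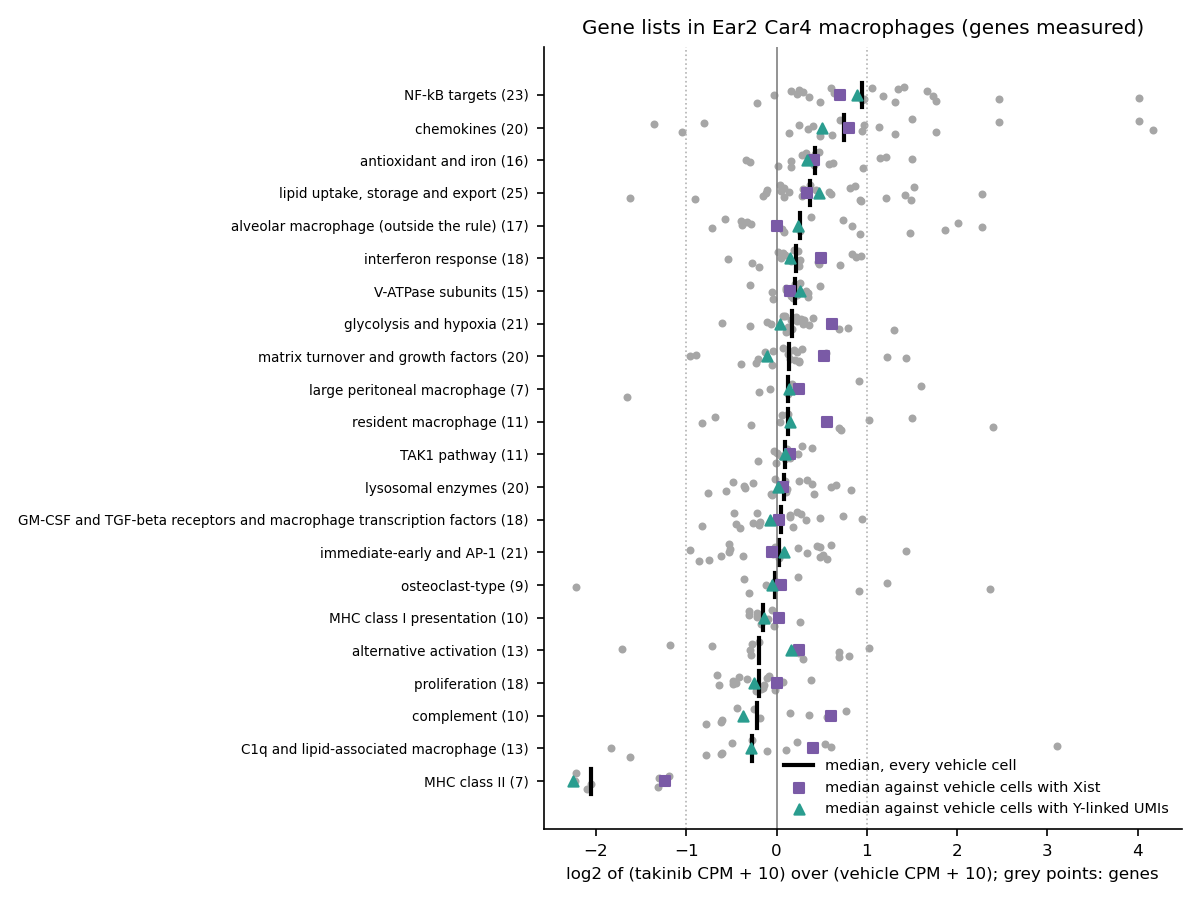
Log2 ratio of takinib over vehicle, after adding 10 CPM to each, for the measured genes of each list (grey points; their number in brackets), with the median against all vehicle cells (black bar), vehicle cells with Xist (square) and with Y-linked RNA (triangle). MHC class II has a median of -2.06 and NF-kB targets of 0.95, and the other lists lie between -0.27 and 0.75.

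The C1q macrophages of the same tumours gave medians of the same sign for most lists, of the other sign for some, and values apart for some genes. Their class II median was -2.30 and their NF-kB median 1.06. Among the lists of the other sign, C1q and lipid-associated genes had a median of 0.25 there against -0.27. Alternative activation genes had 0.18 against -0.19 and large peritoneal macrophage genes -0.21 against 0.13. Saa3 stood at 1091 and 28241 CPM there, so it was higher in both classes of macrophage. Fabp5 stood at 427 and 1629 CPM in the C1q macrophages, against 624 and 955 CPM in the Ear2 and Car4 cells. Cxcl13, a B cell chemokine, stood at 6.88 and 288 CPM in the first and 0.333 and 13.4 CPM in the second. Scd1 stood at 4.89 and 3.87 CPM in the first, and Cyp26b1, which breaks down retinoic acid, at 3.26 and 6.33 CPM against 0.999 and 30.6 CPM in the second. These genes were picked for the size of their difference, and with 1 library per group it was not tested.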

How the data were processed

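Single-cell RNA was measured in 2 libraries, 1 per group, with groups taken from the labels. The deposited matrices hold whole UMI counts, not normalized, made by the authors with Cell Ranger 4 for vehicle and 6.1.1 for takinib, per the file headers. The submitters' processing notes list Cell Ranger 2.1.1, bcl2fastq, STAR 2.0.4b, Subread, featureCounts 1.45 and mm10. The vehicle list of 704261 barcodes included barcodes without UMIs, while the takinib list of 34158 began at 500 UMIs, so its empty droplets had been removed and free RNA could not be estimated from them.

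Counts were summed over the cells of each class with Python 3.11.15, numpy 2.4.6, scipy 1.17.1 and pandas 2.3.3. Classes were set by gates on marker genes, without clustering, correction between libraries or a doublet caller; likely doublets (2 UMIs of another type's genes, or the top 5% by UMIs) were left out as an alternative. Thinning drew 1000 UMIs per barcode, and no barcode was shallower. With no replicate there is no test. A gene was called at a log2 ratio past 1 with a minimum of 50 counts, and lists used 10. The ratio with its intervals was checked on simulated counts. Named genes were the 12 highest and 12 lowest ratios, the 3 most abundant and the 2 extreme genes of each of 22 lists, the genes of the rule and the 12 that led over C1q macrophages; others were named after their values were seen. The members, the lists and the 16 marker lists were chosen with earlier results of these data known. Promoter letters came from RefSeq (GRCm38.p6) and gene positions from GENCODE.

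Alternatives were other depth, mitochondrial and gate limits, thinning, left-out doublets or S100-rich cells, another pseudocount, centring, count minimum or mean, and the vehicle cells with Xist. Added after the data were seen were vehicle cells with Y-linked RNA, subtraction of the neutrophil profile, and cells with S100a8 and S100a9 at 0 or under 0.1%.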

Additional observations from a re-analysis of the deposited data

Results flagged for a closer look

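In 5 of 9320 genes compared, the ratio of takinib over vehicle pointed one way in the Ear2 Car4 macrophages and the other way in the C1q macrophages, by more than 0.5 on the log2 scale each. With 1 library per group the difference was not tested. Fabp7, a brain-type fatty acid carrier, stood at 38.9 and 22.7 CPM (vehicle, then takinib) in the first and 6.51 and 36.1 CPM in the second, a difference between the ratios of -2.06. Ccl17, a chemokine for CCR4-bearing T cells, stood at 112 and 176 CPM against 95.5 and 32.0 CPM, a difference of 1.95. The matrix gene Fbln2 stood at 21.97 and 45.1 CPM against 66.2 and 15.9 CPM, a difference of 2.34. It moved with the fibroblast marker sum of the C1q macrophages, which was 942 and 191 CPM, while in the Ear2 Car4 macrophages that sum was 431 and 334 CPM; the part of this was not tested. Slco2b1, an organic anion transporter, differed by 1.26 and the adhesion gene Bcam by 1.32.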

How the results depend on the processing

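No paired analysis was possible because each group held 1 library. Limits are this single library per group, the mixed source of the vehicle cells and the neutrophil RNA of takinib; the cause of the changes below was not tested. Values of log2 ratios follow. The share, -0.82 as reported, was -0.34 with at least 2000 UMIs and 1000 genes, -1.32 with at most 10% mitochondrial UMIs, -0.61 with the gate on thinned barcodes, -1.12 with S100 under 0.5%, -1.06 without likely doublets, -0.12 among macrophage-gated barcodes and 0.073 among barcodes under the S100 limit. The 154 higher genes became 102 without likely doublets and 414 with a pseudocount of 1 CPM. The 95 lower genes became 41 with the thinned gate, 47 against vehicle cells with Xist, 240 with the pseudocount of 1 and 374 in cells without S100 UMIs, where few counts remained. The class II median, -2.06, was -2.25 without S100 UMIs, -1.93 under 0.1%, -1.98 under 0.5%, -2.14 with the thinned gate, -1.92 without likely doublets, -1.99 with thinned members, and -1.23 and -2.26 against vehicle cells with Xist and Y-linked RNA. The NF-kB median, 0.95, was -0.31 without S100 UMIs, 0.55 under 0.1% and 0.55 under 0.5%, 0.53 with the thinned gate, 0.54 without likely doublets, 0.71 as a mean of cells, 0.62 with thinned members, 0.66 after subtraction of the neutrophil profile and 0.70 against Xist cells. The chemokine median, 0.75, was 0.16 without S100 UMIs, 0.56 without likely doublets, 1.03 with the pseudocount of 1 and 0.50 against Y-linked cells. Retnla turned to 1.09 without likely doublets and 0.95 against Y-linked cells. Without S100 UMIs Prg4 was -0.062 and Il1b -0.97. Of 48 named genes past 1, between 38 and 48 stayed past 1 in every other setting.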
